A study of Mus musculus with 5 samples.

Results

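10 genes of the nucleolus, the compartment of the nucleus in which ribosomes are built, were followed in hepatocytes of regenerating and growing mouse liver. They were chosen by symbol: Ncl, Npm1, Nop56, Nop58, Fbl, Dkc1, Rrs1, Bop1, Nolc1 and Nop10. All 10 were present among the 31053 genes of the files. Levels came from droplet single-cell RNA sequencing of C57BL/6J liver cells in 5 libraries with 1 library per group: unoperated 14-day-old pups (P14), adult mice labelled as controls, and adult mice 24, 48 and 96 h after partial hepatectomy (PHx), an operation on mice aged 8 weeks that takes away the larger part of the liver. A hepatocyte was a barcode with at least 5000 unique molecular identifiers (UMIs, each marking 1 captured RNA molecule), 10% to 30% mitochondrial UMIs and at least 1% of its UMIs from Alb, Apoa1 and Ttr. This left 925 control hepatocytes, 2106 of P14, and 1170, 719 and 771 from the libraries taken 24, 48 and 96 h after PHx. Barcodes of at least 5000 UMIs left out for over 30% mitochondrial UMIs, of whatever cell type, numbered 501 in the control. There were 467 (24 h), 420 (48 h), 1703 (96 h) and 455 (P14) in the other libraries. No alternative setting raised the 30% limit, so its part in the results, at 96 h above all, was not tested.

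Ribosome production starts with transcription of ribosomal DNA by RNA polymerase I, and the precursor RNA is then modified, cut and assembled with proteins inside the nucleolus. Small nucleolar RNAs (snoRNAs) guide the modification. Box C/D particles, with Nop56, Nop58 and the methyltransferase Fbl as core proteins, methylate ribose, and H/ACA particles, with the pseudouridine synthase Dkc1 and Nop10, convert uridine to pseudouridine. Nolc1 is a chaperone of both kinds of particle, Ncl (nucleolin) and Npm1 (nucleophosmin) are abundant multifunctional nucleolar proteins, and Bop1 and Rrs1 act in assembly of the large ribosomal subunit. A liver that regrows has to make new ribosomes as its hepatocytes enlarge and divide.

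No group had a second library, so none of the differences below has a replicate check and no p-value is given. Intervals in parentheses are 95% and cover counting error only. Those after a median of the 10 genes are instead the medians of the genes' lower and upper bounds, with no coverage level of their own. The labels conflict on the control library, which the treatment text counts as operated; it was used as the unoperated group, as it is titled. The adult control alone carries lane code 2 in its description, the other libraries code 1, so that lane and control status cannot be told apart. Sex and the number of animals per library are not stated. Hepatocytes had a median of 18527 to 38922.5 UMIs per library and 13316829 to 64576753 non-mitochondrial UMIs in sum. The 14 hepatocyte markers outside the selection rule were all detected in every library, at a summed 28274 to 67430 CPM (UMIs of a gene scaled to the non-mitochondrial UMIs of the hepatocytes of its library). The 27 leukocyte markers summed to 75.4 CPM in control hepatocytes, 121 (24 h), 238 (48 h), 60.8 (96 h) and 49.0 (P14). S100a8 and S100a9, neutrophil genes, made up 9.39, 90.0, 169, 19.7 and 25.8 CPM of these sums, and the other 25 markers 66.0, 31.5, 68.4, 41.1 and 23.2 CPM. Erythroid markers (8 genes) summed to 728 CPM in control hepatocytes and 534, 778, 345 and 165 CPM at 24 h, 48 h, 96 h and P14. Cholangiocyte markers (7 genes) summed to 54.4, 136, 64.7, 268 and 279 CPM, with Epcam, Krt19 and Krt7 at 0 in the control and at 24 h. Stellate cell and fibroblast markers (10 genes) summed to 6.31, 11.6, 4.85, 11.8 and 47.3 CPM in the same order. The part of these markers in the results was not tested, except where barcodes with leukocyte or endothelial markers were left out. At most 2 hepatocyte barcodes were shared by any pair of libraries.

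By build GRCm38 and GENCODE M21, Nop58 (ENSMUSG00000026020) lies at chr1:59684971-59719044 on the plus strand with 13 exons in its principal transcript, and 4 snoRNA genes lie in its introns. Nop56 (ENSMUSG00000027405) lies at chr2:130274430-130279313 on the plus strand with 12 exons and holds 5 snoRNA genes, 4 of them intronic. Nolc1 (ENSMUSG00000015176) lies at chr19:46075863-46085530, plus strand, with 13 exons. Ncl (ENSMUSG00000026234) lies at chr1:86344719-86359400, minus strand, with 14 exons and 3 intronic snoRNA genes. Of the other genes, Dkc1 on chromosome X holds 1 snoRNA gene, and Npm1, Fbl, Rrs1, Bop1 and Nop10 hold none. Rrs1 has a single exon. Bop1 contains the gene Scx on the opposite strand, and Nop56 and Dkc1 overlap a neighbour on the opposite strand by 5 and 45 bases. Whether the counting used strand is not given in the sources used here.

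Promoters from RefSeq (GRCm38.p6) matched 6 of the 10 genes: Ncl, Nop56, Nop58, Dkc1, Nolc1 and Nop10. The stretches shown belong to the genes with the largest hepatocyte ratios at 24 h, Nop58, Nop56 and Nolc1, and to Ncl, which differed little at that time, so that the upstream letters of genes with different behaviour can be compared. Each holds 150 bases that end before the annotated start, in lower case 5′ to 3′ in the direction of the gene, with GC boxes (GGGCGG), ETS core letters (CCGGAA) and CCAAT boxes in capitals, on either strand. They are chr1:59684821-59684970 (plus strand), chr2:130274262-130274411 (plus), chr19:46075697-46075846 (plus) and chr1:86359456-86359605 (minus).
Nop58: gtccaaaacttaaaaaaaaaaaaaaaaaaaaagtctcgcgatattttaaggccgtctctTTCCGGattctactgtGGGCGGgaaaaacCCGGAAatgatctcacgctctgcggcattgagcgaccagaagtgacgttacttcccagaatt
Nop56: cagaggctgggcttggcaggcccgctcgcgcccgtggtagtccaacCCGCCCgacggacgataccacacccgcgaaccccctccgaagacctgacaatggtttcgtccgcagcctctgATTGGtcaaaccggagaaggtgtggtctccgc
Nolc1: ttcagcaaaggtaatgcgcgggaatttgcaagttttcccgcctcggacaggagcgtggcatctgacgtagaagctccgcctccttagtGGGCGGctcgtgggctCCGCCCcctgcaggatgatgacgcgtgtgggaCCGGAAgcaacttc
Ncl: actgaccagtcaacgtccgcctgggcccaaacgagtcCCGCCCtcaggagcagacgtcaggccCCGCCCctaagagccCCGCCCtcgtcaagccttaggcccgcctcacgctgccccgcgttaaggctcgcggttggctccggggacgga
In the 250 bases before the RefSeq start, GC boxes occurred in 4 of the 6 genes (Nop58, Ncl, Nop56 and Nolc1), against 32.7% of 32851 promoters of that length. The ETS core letters occurred in 2 of 6 (Nop58 and Nolc1), against 12.0% of promoters, and CCAAT in 1 of 6 (Nop56), against 33.8%. The E-box CACGTG, the sequence bound by Myc with Max, occurred in 0 of 6, against 6.02% of promoters. None of these matches overlapped another. A match describes letters in this window and is not evidence of binding. The absence of the E-box from 6 promoters, at a share of 6.02%, says little, and letters after the start were not searched.

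At 24 h after PHx all 10 genes were above the adult control. Their median log2 ratio was 0.62 (0.47 to 0.77), while the median of the 9028 genes that reached 5 CPM in 1 of the libraries or both was -0.00. Log2 ratios are of (CPM + 1) over (CPM + 1), which understates the change of low genes. Values written as fold are plain quotients of CPM with no pseudocount. Genes counted as at least 2-fold higher or lower, or said to pass 2-fold, were called on the log2 ratio with the pseudocount. Of the 10 genes, 3 were at least 2-fold higher (Nop58, Nop56 and Nolc1), against 8.51% of all genes. In sum the 10 genes took 547 CPM in control hepatocytes, 824 (24 h), 694 (48 h), 612 (96 h) and 627 (P14). The sum at 24 h was 1.51-fold (1.47 to 1.55) that of the control.

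Nop58 and Nop56 of the box C/D core had the largest ratios of the 10 at 24 h, and Fbl of the same core stood below 6 of the 10. Nop58 stood at 11.7 CPM in control hepatocytes, 79.2 (24 h), 62.9 (48 h), 28.3 (96 h) and 31.9 (P14), from 156 UMIs in the control and 1545 at 24 h. All 3 PHx libraries and P14 were above the adult control, and the level was lower at each later time after PHx. The ratio to the control was 6.76-fold (5.73 to 8.02) at 24 h, 5.37-fold (4.54 to 6.38) at 48 h and 2.42-fold at 96 h. Nop56 stood at 7.66 CPM in control hepatocytes, 21.7 (24 h), 18.3 (48 h), 10.1 (96 h) and 15.5 (P14), and was 2.83-fold (2.27 to 3.55) higher at 24 h. The order of the 5 libraries was the same as for Nop58. Fbl, the enzyme of the same particle, stood at 23.9 CPM in control hepatocytes, 32.6 (24 h), 32.2 (48 h), 34.3 (96 h) and 31.4 (P14). Its highest level was at 96 h, and the 4 libraries other than the control lay between 1.32-fold and 1.44-fold of it.

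Dkc1, the enzyme of the H/ACA particle, stood at 15.5 CPM in control hepatocytes, 24.9 (24 h), 16.8 (48 h), 17.0 (96 h) and 14.6 (P14). Only the 24 h library stood apart, at 1.61-fold (1.37 to 1.90), and the intervals of the other ratios to the control included no difference. Nop10, a small scaffold protein of the particle, stood at 156 CPM in control hepatocytes, 236 (24 h), 201 (48 h), 176 (96 h) and 105 (P14). It was above the control at all 3 times after PHx and below it in P14. Nolc1, the snoRNA particle chaperone, stood at 16.7 CPM in control hepatocytes, 38.6 (24 h), 29.8 (48 h), 22.2 (96 h) and 16.9 (P14). Its ratio was 2.32-fold (1.99 to 2.70) at 24 h, and P14 was at 1.02-fold (0.878 to 1.18), or 0.02 on the log2 scale, which became 0.77 with 10% to 20% mitochondrial UMIs and 0.35 with trimmed-mean (TMM) factors.

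Ncl and Npm1 followed other courses. Ncl stood at 85.0 CPM in control hepatocytes, 95.8 (24 h), 112 (48 h), 107 (96 h) and 183 (P14). At 48 h it was above 24 h, at 1.16-fold (1.10 to 1.24) or 0.22 on the log2 scale, where the other 9 genes were lower. The log2 value was 0.07 without hepatocyte barcodes that carried 3 or more UMIs of leukocyte or endothelial markers, a filter that left 64 hepatocytes at 48 h, and 0.18 with S100a8 and S100a9 not counted, which left 493. Hepatocytes at 48 h were deeper than at 24 h, with medians of 35432 and 19562 UMIs, and between cells of like depth Ncl was above 24 h in the highest band alone. It stood at 95.5 CPM at 24 h and 95.3 at 48 h in cells of 20000 to 40000 UMIs, at 91.6 and 79.1 in cells of 10000 to 20000, and at 100.3 and 123 in cells of 40000 or more. The highest level of Ncl was in P14. Npm1 stood at 179 CPM in control hepatocytes, 216 (24 h), 169.9 (48 h), 168 (96 h) and 203 (P14). It was 1.20-fold (1.15 to 1.27) higher at 24 h and slightly below the control at 48 h and 96 h, though at 0.011 above it on the log2 scale at 48 h with TMM factors. Reads of Npm1 may be shared with its processed pseudogenes, near-identical copies whose treatment in the counting is not given in the sources used here.

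The large-subunit factors differed from each other. Rrs1 stood at 28.0 CPM in control hepatocytes, 56.6 (24 h), 30.1 (48 h), 31.1 (96 h) and 11.4 (P14). Over all hepatocytes it was highest in the 24 h library, at 2.02-fold (1.80 to 2.28) or 0.99 on the log2 scale with the pseudocount, just under the 2-fold limit, and low in P14. At 48 h and 96 h the intervals of its ratio to the control included no difference, though under other settings the log2 ratio reached 0.36 and 0.32. Bop1 stood at 22.9 CPM in control hepatocytes, 23.5 (24 h), 21.8 (48 h), 18.7 (96 h) and 14.3 (P14). Its ratio at 24 h was 1.03-fold (0.887 to 1.19), the one gene of the 10 whose interval included no difference.

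**Figure D1:**
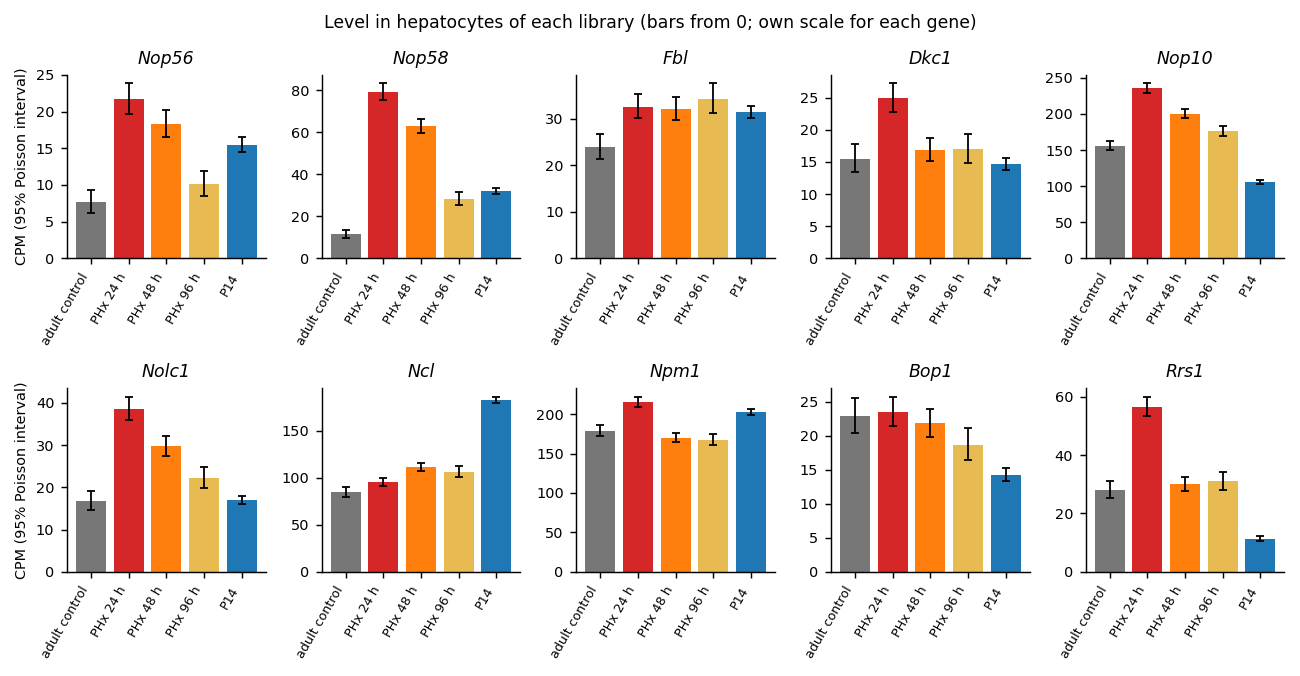
Level of each of the 10 genes in hepatocytes of the 5 libraries, in CPM on the y axis with its own scale for each gene; bars start at 0 and error bars are 95% Poisson intervals of 1 library each. Nop58 goes from 11.7 CPM in the adult control to 79.2 at 24 h, Rrs1 is highest at 24 h, and Ncl is highest in P14, at 183 CPM.

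At 48 h the median ratio to the adult control was 0.37 (0.25 to 0.46), with all genes at -0.08, and 2 genes were at least 2-fold higher (Nop58 and Nop56), against 8.3% of all genes. Within depth bands the 48 h median was lower in 3 of 4, at 0.31 (5000 to 10000 UMIs), 0.16 (10000 to 20000) and 0.19 (20000 to 40000), and 0.39 in the highest band with its 9 control cells; in the middle pair of bands Nop58 alone was at least 2-fold higher. At 96 h the median over all hepatocytes was 0.25 (0.05 to 0.41), with all genes at 0.04, and Nop58 alone was at least 2-fold higher, against 4.07%. With 10% to 20% mitochondrial UMIs, which left 53 hepatocytes at 96 h, Nop58 was at 0.85 and Fbl (1.15) and Nolc1 (1.38) passed 2-fold there. Comparisons between PHx libraries stay within one lane code. From 24 h to 48 h the median of the 10 was -0.28 (-0.42 to -0.19), with all genes at -0.07. Of the 10, 9 were lower, as were 58.6% of all genes, with Fbl (-0.02) and Bop1 (-0.10) inside the counting interval, and 0 were at least 2-fold lower, against 1.76% of all genes. The largest step was that of Rrs1, at -0.89 (-1.03 to -0.75). From 48 h to 96 h the median was -0.12 (-0.24 to 0.02), with all genes at 0.11, and Nop58 was at least 2-fold lower (-1.12), against 4.24%. Nop56 followed at -0.79 (-1.07 to -0.53) and Nolc1 at -0.41 (-0.60 to -0.21). The larger step down thus lay between 24 h and 48 h for Rrs1 and Dkc1, and between 48 h and 96 h for Nop58 and Nop56.

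**Figure D2:**
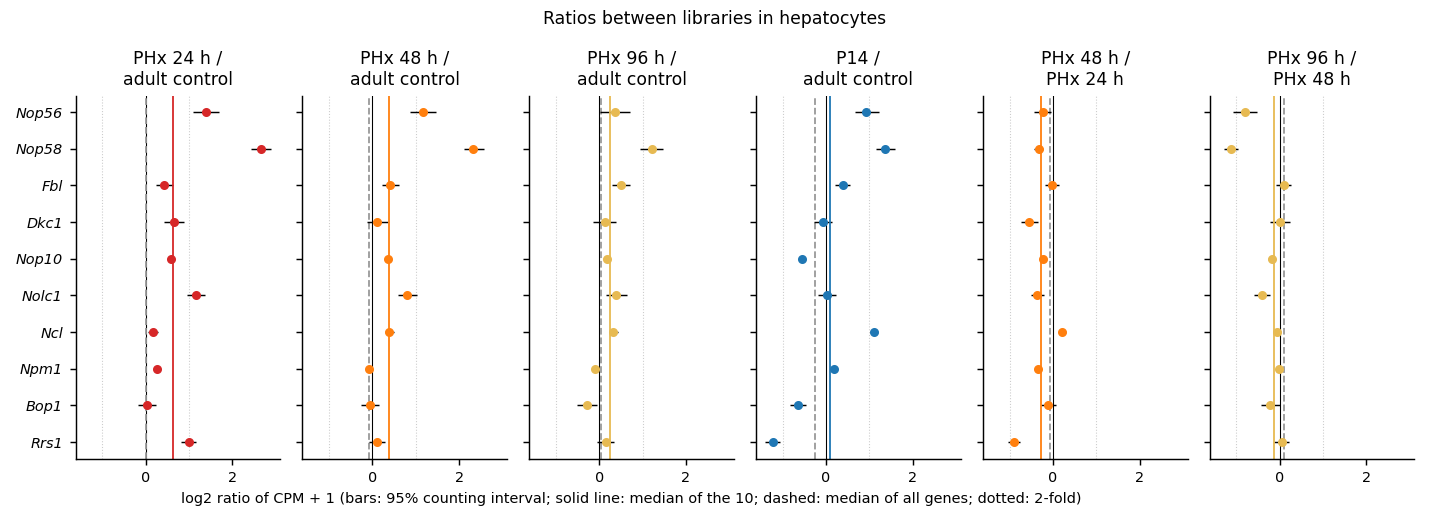
Log2 ratio of CPM + 1 of the 10 genes for 6 pairs of libraries, with 95% counting intervals; the solid line is the median of the 10, the dashed line the median of all genes and dotted lines mark 2-fold. At 24 h all 10 points lie above 0 with a median of 0.62, and in P14 they spread from -1.23 for Rrs1 to 1.37 for Nop58.

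In P14 the 10 genes lay on both sides of the adult control. The median ratio of P14 to the adult control was 0.10 (-0.03 to 0.23), while all genes stood at -0.26. Nop58 (1.37, 1.15 to 1.60) and Ncl (1.10, 1.01 to 1.19) were at least 2-fold higher, 2 of 10 against 7.89% of all genes, and Rrs1 (-1.23, -1.40 to -1.06) was at least 2-fold lower, 1 of 10 against 13.8%. Nop56 stood at 0.93, just under the limit with the pseudocount, and at 2.02-fold as a plain quotient. Bop1 stood at -0.64 and Nop10 at -0.56. These values depend on scaling, as TMM factors shifted the all-gene median of P14 upward by 0.34. With them Nop56 also passed 2-fold (1.25), Rrs1 no longer did (-0.91), Bop1 and Nop10 stood at -0.32 and -0.22, and Dkc1 turned from -0.08 to 0.24.

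Shares of hepatocytes with a UMI of each gene were compared as well. To compare libraries of unequal depth, each hepatocyte was thinned to 5000 UMIs, which left out no cell. Nop58 was then detected in 4.65% of control hepatocytes, 25.04% (24 h), 19.7% (48 h), 10.2% (96 h) and 12.6% (P14), and without thinning in 14.8%, 65.2%, 70.7%, 34.5% and 56.6%. At equal depth the share was highest at 24 h, and without thinning at 48 h, where cells were deeper. Rrs1 was detected in 8.76%, 18.2%, 11.1%, 9.86% and 5.13% in the same order, and Ncl in 24.1%, 30.3%, 33.1%, 28.1% and 47.1%. All 10 shares were above the control at 24 h and 48 h, and at 96 h 9 were, with Npm1 detected in 46.3% of control hepatocytes and 43.1% at 96 h. The matching count over all genes is not given. At 24 h the intervals of Npm1 and Bop1 overlapped those of the control, and at 96 h those of all but Nop58 and Fbl did. At 48 h the intervals of some shares overlapped those of the control, among them Npm1 (49.1%), Bop1 (8.21% against 7.24%) and Dkc1 (5.56% against 4.97%). Npm1 and Bop1 were below the control in CPM at that time. The shares of Nop58 and Rrs1 thus peaked in the 24 h library and that of Ncl in P14, as their levels did. Hepatocytes with UMIs of at least 3 of the 10 genes made up 16.3% of the control, 42.5% (24 h), 35.9% (48 h), 23.0% (96 h) and 27.9% (P14), and those with none 15.2%, 5.64%, 8.48%, 11.9% and 11.3%. Free RNA of empty droplets held the 10 genes too, at a summed 697 CPM in the control, 1089 (24 h), 856 (48 h), 770 (96 h) and 934 (P14). Nop58 in free RNA was at 16.7 CPM (control) and 72.2 CPM (24 h), near its hepatocyte levels. Empty droplets held a median of 1330.0 UMIs (control), 665, 287, 775 and 460.0 UMIs, most in the control. All cell types express these genes, so no background share was at hand, and the part of free RNA in the shares was not tested. With free RNA subtracted, the median ratio of the 10 at 24 h was 0.63.

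**Figure D3:**
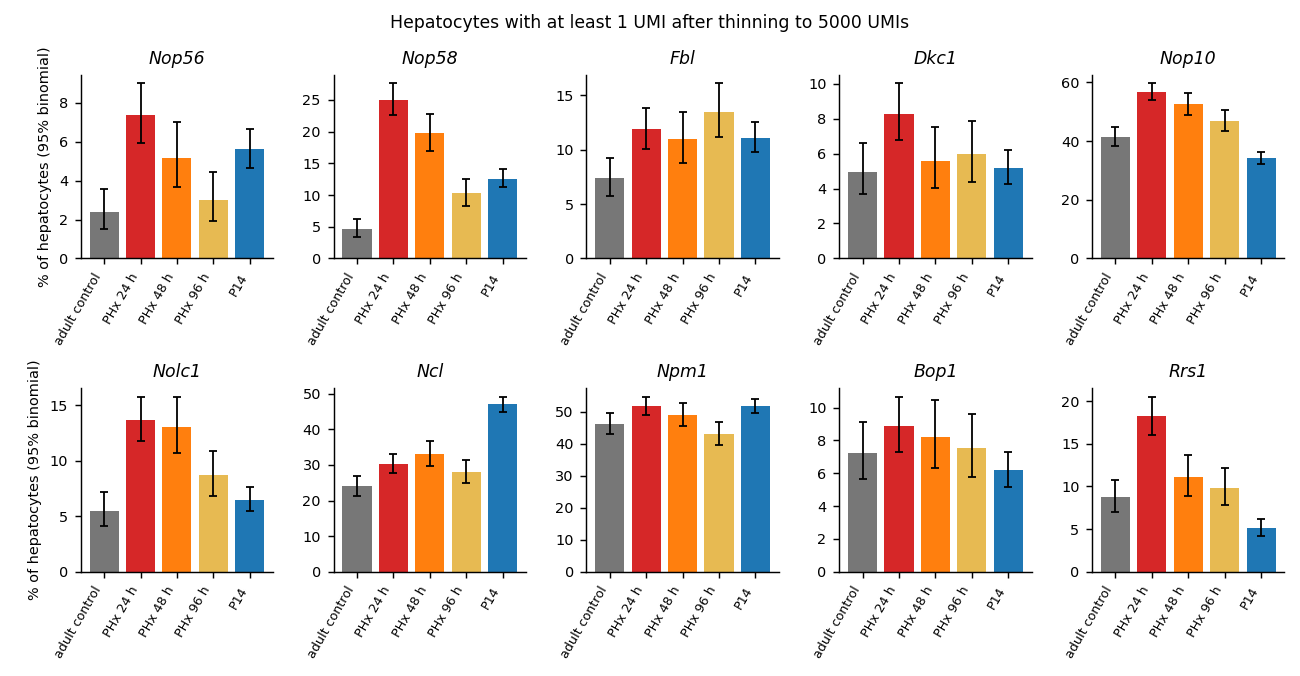
Share of hepatocytes with at least 1 UMI of each gene, in percent on the y axis, after every hepatocyte was thinned to 5000 UMIs; error bars are 95% binomial intervals of 1 library each. Nop58 is detected in 4.65% of adult control hepatocytes and 25.04% at 24 h, and Ncl in 47.1% of P14 hepatocytes.

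Hepatocytes were then divided by cell-cycle genes at equal depth, with none of the 10 genes used to do so. A mitosis-positive cell showed 3 or more of 30 mitosis genes, and a non-cycling cell showed none of these and no more than 1 of 35 replication genes. There were 216, 322, 90 and 283 mitosis-positive and 272, 158, 404 and 1028 non-cycling hepatocytes at 24 h, 48 h, 96 h and in P14, and 655 non-cycling hepatocytes in the adult control, whose 5 mitosis-positive cells were too few to be read. Mitosis-positive cells were deeper than non-cycling cells at the 3 times after PHx, with a median of 41980 UMIs against 30350 at 48 h, and shallower in P14 (36411 against 39958.5), and the part of depth in the class differences was not tested.

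Non-cycling hepatocytes at 24 h were also above non-cycling control hepatocytes, but by less and not for every gene. The median ratio was 0.45 (0.24 to 0.67) at 24 h, with all genes at -0.08 and 1 of 10 at least 2-fold higher against 5.11% of all genes. It was 0.16 (-0.12 to 0.38) at 48 h (all genes at -0.23, 1 of 10 against 4.17%), and 0.15 (-0.14 to 0.39) at 96 h (all genes at -0.02, 0 of 10 against 3.01%). In non-cycling P14 cells it was -0.09 (-0.25 to 0.08), with all genes at -0.35, 1 of 10 at least 2-fold higher against 6.55% and 1 of 10 at least 2-fold lower against 16.3%. Nop58 in non-cycling cells stood at 12.5 CPM in control hepatocytes, 62.2 (24 h), 39.4 (48 h), 23.0 (96 h) and 27.7 (P14), and its ratio at 24 h was 4.99-fold (4.01 to 6.25). The class rests on few UMIs per cell, so cycling cells without a detected cycle gene can be among the non-cycling. Rrs1 in non-cycling cells was at 28.0 CPM in the control and 51.7 at 24 h, and Nolc1 at 16.9 and 30.1. Nop56 at 24 h was at 0.94 on the log2 scale, and at 2.03-fold as a plain quotient. It passed 2-fold (1.02) without barcodes of 3 or more UMIs of endothelial markers or of leukocyte markers other than S100a8 and S100a9.

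In non-cycling cells at 24 h and 48 h Ncl and Npm1 were not above the control. Ncl in non-cycling cells stood at 83.2 CPM (control), 79.7 (24 h), 69.1 (48 h) and 93.6 (96 h), whereas in mitosis-positive cells of the same PHx libraries it stood at 119.5, 135 and 162. Npm1 in non-cycling cells stood at 179 CPM (control), 165 (24 h), 121 (48 h) and 148 (96 h), against 295, 202 and 263 in mitosis-positive cells. At 96 h and in P14 the non-cycling level of Ncl was above the control, at 1.13-fold (1.01 to 1.25) and 2.00-fold (1.86 to 2.16), the latter from 166 CPM. For both genes the non-cycling cells at 24 h did not exceed the control, at 0.959-fold (0.843 to 1.09) for Ncl and 0.921-fold (0.843 to 1.00) for Npm1. At 48 h non-cycling cells were below the control, at 0.831-fold (0.722 to 0.954) for Ncl and 0.673-fold (0.608 to 0.746) for Npm1. On the log2 scale Ncl was at -0.26 and Npm1 at -0.57, so Ncl lay near the all-gene median of -0.23 in this comparison and Npm1 below it. Without barcodes that held 3 or more UMIs of endothelial markers or of leukocyte markers other than S100a8 and S100a9, Npm1 in non-cycling cells at 48 h was at 0.689-fold (0.612 to 0.773) of the control and Ncl at 0.846-fold (0.722 to 0.988). With this filter Ncl at 96 h was at 1.10-fold (0.991 to 1.23), an interval that included no difference, and in P14 at 1.98-fold (1.83 to 2.14).

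Within each library, mitosis-positive cells carried more of most of these transcripts than non-cycling cells. The median ratio between the classes was 0.63 at 24 h (0 of 10 at least 2-fold higher against 8.69% of all genes), 0.42 at 48 h (1 of 10, Nop58, against 8.28%), 0.51 at 96 h (1 of 10, Nop58, against 8.32%) and 0.58 in P14 (1 of 10, Nop56, against 8.64%). All genes stood at 0.14, 0.21, 0.22 and 0.26. Npm1 was 1.79-fold (1.63 to 1.97) higher at 24 h, then 1.67-fold (48 h), 1.78-fold (96 h) and 1.89-fold (P14), and the log2 ratio of Ncl lay between 0.58 and 0.95. The 25 leukocyte markers other than S100a8 and S100a9 summed to 34.9, 67.0, 26.4 and 79.7 CPM in mitosis-positive cells and 29.4, 67.8, 51.7 and 12.9 CPM in non-cycling cells. They were thus close at 24 h and 48 h, lower in mitosis-positive cells at 96 h and higher there in P14. Without barcodes of 3 or more UMIs of these or endothelial markers, Npm1 was at 1.77-fold, 1.60-fold, 1.83-fold and 1.89-fold, and the medians of the 10 were 0.61, 0.35, 0.48 and 0.58. Rrs1 was at 1.09-fold, 1.00-fold, 0.985-fold and 1.20-fold, with every interval including no difference. Fbl also had intervals that included no difference in the 4 libraries. Bop1 was lower in mitosis-positive cells at 24 h, at 0.690-fold (0.509 to 0.930), and not at the other times. Cells positive for replication genes alone lay between in their medians over non-cycling cells, at 0.33 (24 h), 0.25 (48 h), 0.19 (96 h) and 0.24 (P14). All genes stood at 0.06, 0.03, 0.07 and 0.09, and the bounds at 48 h (-0.10 to 0.52) and 96 h (-0.19 to 0.73) included 0. Not every gene lay between, as Rrs1 at 24 h stood at 62.1 CPM in these cells and 56.6 in mitosis-positive cells.

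**Figure D4:**
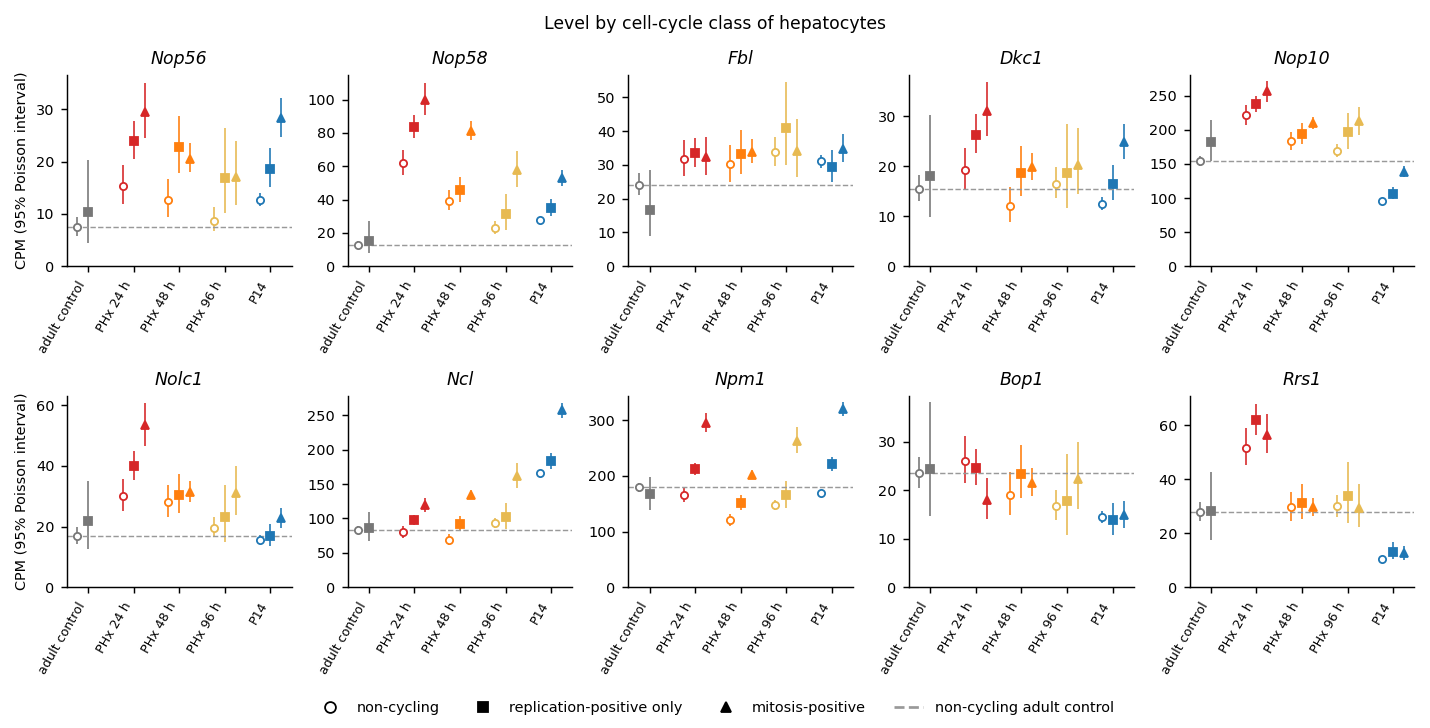
Level of each gene in CPM on the y axis, by library and cell-cycle class of hepatocytes: open circles are non-cycling, squares replication-positive only and triangles mitosis-positive cells, with 95% Poisson intervals, and the dashed line is the non-cycling adult control. Npm1 in mitosis-positive cells at 48 h (202 CPM) stands above non-cycling cells of that library (121 CPM), which lie under the dashed line, while non-cycling cells for Nop58 lie above it at all 3 times.

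Depth and position in the lobule were examined in the same way. In hepatocytes of 5000 to 10000, 10000 to 20000, 20000 to 40000 and over 40000 UMIs the median ratio of 24 h to the control was 0.80, 0.47, 0.67 and 0.56, the last with only 9 control cells. Hepatocytes of each library were also ranked by pericentral against periportal genes and cut into 3 sets of equal size, and there it was 0.72 in the periportal, 0.61 in the middle and 0.64 in the pericentral set. Nop58 was 7.19-fold, 6.73-fold and 6.47-fold higher in these sets. The ranks hold within each library alone. Periportal genes summed to 14855.5 CPM in control hepatocytes, 13569 (24 h), 7669 (48 h), 12632 (96 h) and 12957 (P14). Pericentral genes summed to 5120, 5065, 5538, 4566 and 5143 CPM. A set need not hold the same lobule position in each library. Other comparisons varied more between the sets. From 48 h to 96 h the median was -0.31 in the periportal, -0.27 in the middle and 0.11 in the pericentral set, where 6 of 10 genes were higher at 96 h. It was 0.13 in cells of 5000 to 10000 UMIs. All-gene values within these sets and bands are not given. Over all hepatocytes 60.9% of all genes were higher at 96 h than at 48 h, with a median of 0.11. The pericentral values were near these, which belong to all hepatocytes and are not matched to any of the sets. For 48 h over 24 h the median was -0.11 in the periportal, -0.31 in the middle and -0.46 in the pericentral set. For P14 over the control it was 0.41, 0.03 and -0.08 in the 3 sets. The difference of Nop58 at 24 h was present in the 3 sets and, at 5.28-fold to 6.84-fold, in the 3 lower depth bands. In the highest band the control held 3 UMIs of Nop58, and the log2 ratio was 2.95 (1.45 to 5.08).

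Leukocytes of the same libraries gave smaller ratios at 24 h. Leukocyte marker-positive barcodes (at least 2000 UMIs, at least 5 of them from the 27 markers, under 10% mitochondrial UMIs) numbered 1002 (control), 618 (24 h), 1192 (48 h), 703 (96 h) and 263 (P14), and pool several cell types whose mix can differ between libraries. The 10 genes summed there to 1797 CPM (control), 1794 (24 h), 1734 (48 h), 2043 (96 h) and 4338 (P14). The median ratio to the control was 0.03 (24 h), -0.06 (48 h), 0.17 (96 h) and 1.00 (P14), with all genes at -0.26, -0.18, -0.03 and 0.01. Nop58 stood at 53.2 CPM in control leukocytes and 67.2 at 24 h, and Nop56 at 74.6 and 53.9. The log2 ratio of Nop58 at 24 h was 0.33 (0.11 to 0.55) in leukocytes and 2.66 (2.43 to 2.89) in hepatocytes, intervals that do not overlap, though no test across libraries is possible. Without hepatocyte barcodes that carried markers of leukocytes or endothelial cells the median in hepatocytes was 0.63 at 24 h and 0.36 at 48 h, the latter from the 64 hepatocytes left there; with S100a8 and S100a9 not counted it was 0.66 and 0.34, from 1119 and 493.

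**Figure D5:**
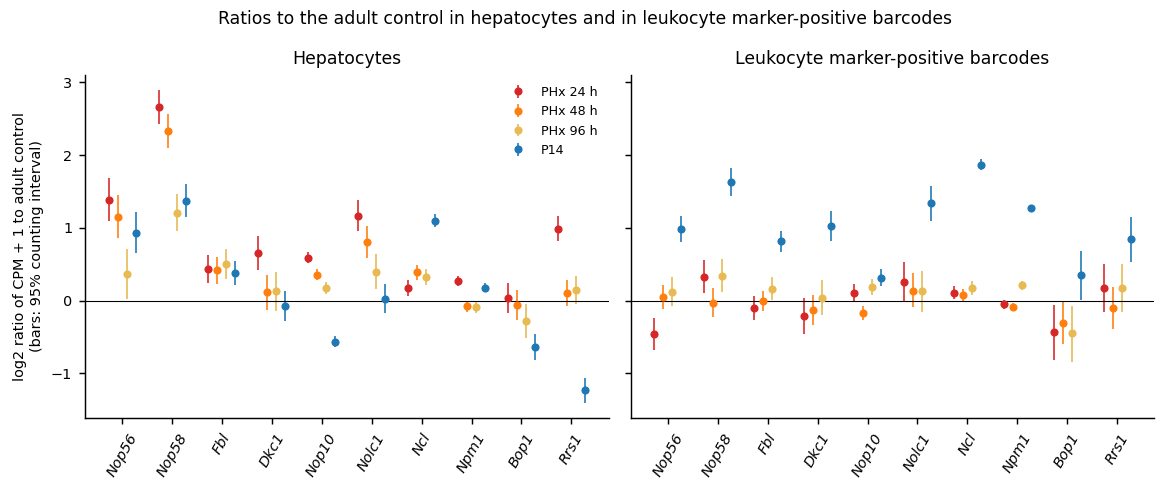
Log2 ratio of CPM + 1 to the adult control for the 10 genes in hepatocytes (left) and leukocyte marker-positive barcodes (right), with 95% counting intervals; colours are PHx 24 h, 48 h, 96 h and P14. Nop58 at 24 h is at 2.66 in hepatocytes and 0.33 in leukocytes, and P14 leukocytes have a median of 1.00.

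Another set of barcodes had hepatocyte transcripts but under 5% mitochondrial UMIs. It held 144 barcodes in the adult control and 307 at 24 h, with medians of 6006.5 and 8702 UMIs. The median ratio of the 10 genes at 24 h was -0.16, with 4 of 10 above the control, while all genes stood at -0.72 with 25.6% above it. At 48 h, 96 h and in P14 the median of the 10 was -0.39, -0.60 and -0.23, with all genes at -0.66, -0.46 and -0.11. In these libraries 3, 2 and 4 of 10 were above the control, against 24.4%, 27.6% and 44.6% of all genes. The median of the 10 thus lay below the control there, but above the median of all genes at 24 h and 48 h and below it in the other libraries. At 24 h Nop58 (1.63, 1.00 to 2.33) and Rrs1 (0.92, 0.28 to 1.61) were higher there too, whereas Dkc1 (-1.03, -1.66 to -0.38), Bop1 (-1.01, -1.61 to -0.38) and Ncl (-0.77, -0.98 to -0.55) were lower. Leukocyte markers summed to 918 CPM in the control barcodes of this set and 761 at 24 h, above the 75.4 and 121 CPM of the hepatocytes. At 48 h, 96 h and in P14 they summed to 2438, 602 and 14458 CPM. Erythroid markers summed to 373 CPM in the control barcodes, 172 (24 h), 259 (48 h), 5118 (96 h) and 162 (P14). The part of these markers in the differences of this set was not tested.

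Other ribosome biogenesis genes had a similar median at 24 h. Of 148 such genes in the files, 139 reached 5 CPM in either library. Their median ratio at 24 h was 0.63, with 26 at least 2-fold higher and 1 at least 2-fold lower, against 8.51% and 7.13% of all genes. At 48 h the median was 0.39 (13 higher and 1 lower of 139, against 8.3% and 7.63%), at 96 h it was 0.28 (1 higher and 0 lower of 134, against 4.07% and 1.88%), and in P14 it was 0.07 (4 higher and 1 lower of 133, against 7.89% and 13.8%). The share of higher genes was thus above that of all genes at 24 h, near it at 48 h and below it at 96 h and in P14. At 24 h, when 8.51% of all genes were at least 2-fold higher, the median was 0.91 for the other snoRNA particle proteins (4 of 9 at least 2-fold higher), 0.37 for RNA polymerase I subunits and factors (3 of 13), 0.49 for small-subunit factors (4 of 49), 0.66 for large-subunit factors (9 of 52) and 0.94 for the RNA exosome, which trims precursor RNA (4 of 13). The count for small-subunit factors was near the share of all genes. Of 11 listed snoRNA host RNAs, 3 were matched by symbol, and 2 of them were at least 2-fold higher at 24 h.

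Genes named from each list were chosen among those of at least 20 CPM, and rankings hold among these only. Core partners of the snoRNA particles were among the higher genes. Nhp2, an H/ACA core protein, went from 48.2 CPM in the control to 116 (24 h), 93.1 (48 h) and 59.5 (96 h), and Snu13, which binds box C/D RNAs, from 56.6 to 121, 96.1 and 71.4. Among the 6 polymerase I genes of that level, the subunits Znrd1 (1.26) and Twistnb (0.86) were highest in ratio at 24 h, and Ubtf, the factor that opens ribosomal DNA for transcription, was lowest (-0.29; 43.9 CPM in the control and 35.7 at 24 h). The helicase Ddx21 (1.37) and Utp11 (1.18) led the small-subunit factors, and Imp4 was at -0.07. Lyar (1.34) and Eif6 (1.25), which keeps the large subunit from joining too early, led the large-subunit factors. Nop53 was the 1 gene at least 2-fold lower (-1.52), at 61.4 CPM (control), 20.8 (24 h), 30.9 (48 h), 43.8 (96 h) and 54.4 (P14), an order opposite to that of Nop58 among the adult libraries. Of the 7 exosome genes of that level, Exosc1 was highest at 0.996, just under the 2-fold limit, with Exosc3 at 0.94 and Exosc5 lowest at -0.45. The exosome genes counted above as at least 2-fold higher thus lay below 20 CPM in both libraries. The snoRNA host Snhg6 went from 33.3 CPM in the control to 121 (24 h), 79.7 (48 h) and 58.3 (96 h).

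Myc, a transcription factor known as an activator of ribosome biogenesis genes, was not higher in these libraries. It stood at 22.3 CPM in control hepatocytes, 12.0 (24 h), 4.80 (48 h), 5.73 (96 h) and 2.01 (P14). The adult control was thus the highest of the 5. The 16 listed genes that respond to tissue handling summed to 2129.7 CPM (control), 1942, 1875, 1716 and 1519 CPM; their part in the Myc levels was not tested. Of 7 Myc network genes of at least 5 CPM, 0 were at least 2-fold higher and 3 at least 2-fold lower at 24 h, against 8.51% and 7.13% of all genes. Mlx was highest at 24 h in ratio (0.60), and Mxd4, an antagonist of Myc, was lowest (-2.19), at 110.3 CPM in the control and 23.5 at 24 h.

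Across the 5 libraries the 10 genes were not of one pattern. Among 6056 genes of at least 20 CPM in 1 or more libraries, ranked by the distance of their centred log2 level from the mean of the 10, the nearest of the 10 was Dkc1, at rank 140, and Nop58 was at rank 4896. Genes outside the 10 that lay nearest to their mean were Serbp1 (0.04), Nudt5, Gtf2e2, Smchd1, Srsf10, Ptpn21, Smco4, Stag1, Sfpq and Bcas2, at distances up to 0.11 over 5 libraries. Serbp1, an mRNA-binding protein of the ribosome, went from 243 CPM in the control to 424 (24 h), 346 (48 h), 297 (96 h) and 269 (P14).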

How the data were processed

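Liver cells were profiled with a 10x droplet kit. For each library the authors deposited raw UMI counts per gene and barcode, whole numbers without normalization, written by software version 3.0.2 per the file headers. Build mm10 and Cell Ranger are named per the submitters' processing notes, with no version of the latter. Each matrix lists 31053 genes and 6794880 barcodes, empty droplets included, with 80927744 to 136110607 UMIs. The 10 genes and all lists were chosen with earlier results of these data known.

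CPM are the summed hepatocyte counts of a library over their sum for all but the 13 mitochondrial genes. Ratios used a pseudocount of 1 CPM and, for all-gene values, a minimum of 5 CPM in 1 of the compared libraries. Poisson, conditional binomial and binomial intervals are exact. UMIs were thinned without replacement. Free RNA was read from barcode ranks 20001 to 60000. Doublets were kept, and as an alternative the highest 8% of Scrublet scores were removed (scanpy 1.11.5). TMM factors came from edgeR 4.0.16. Names in the text follow a rule: the 10 genes, the 2 highest and the lowest 24 h ratio per pathway list among genes of at least 20 CPM, Myc, and the 10 nearest patterns. Zonation sets, depth bands and cell-cycle classes were planned. The set of low-mitochondrial barcodes and the ratios within depth bands, zonation sets and other cells were examined after the data had been seen. The filter that ignores S100a8 and S100a9 was also added after seeing the data. Plain ratios, their intervals and thinning were tried on simulated data. The counts for the ratios were drawn from the measured levels by a Poisson model without variation between cells. That trial cannot show whether the intervals hold with such variation. Intervals of log2 ratios with the pseudocount and the bounds given for medians were not tried.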

Additional observations from a re-analysis of the deposited data

How the results depend on the processing

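No paired analysis was possible because each group has 1 library. Over 12 alternatives, 1 of them (other cells' markers without S100a8 and S100a9) chosen after seeing the data, the median ratio of the 10 genes ranged from 0.51 to 0.68 at 24 h, 0.30 to 0.46 at 48 h, 0.18 to 0.31 at 96 h, -0.36 to -0.20 for 48 h over 24 h and -0.22 to -0.05 for 96 h over 48 h. Within depth bands, examined apart from these settings, the median at 48 h was as low as 0.16. For P14 over the control it ranged from 0.075 to 0.47. Of the settings, 2 moved it outside the medians of the genes' bounds (-0.03 to 0.23): 0.47 with 10% to 20% mitochondrial UMIs and 0.43 with TMM factors. At least 9 of 10 genes were above the control at 24 h in all of these settings. Between 1 and 4 genes were at least 2-fold higher at 24 h, the 1 with a pseudocount of 10 CPM, between 1 and 3 at 48 h and in P14, and between 0 and 2 at 96 h, the 0 with that pseudocount, which also left Nop58 at -0.93 for 96 h over 48 h. The shares of all genes past 2-fold under these settings are not given, so these counts cannot be set against a background. Some genes changed sign. Npm1 at 48 h over the control became 0.0035 with 10% to 20% mitochondrial UMIs, 0.0040 with at least 3% of UMIs from Alb, Apoa1 and Ttr, and 0.011 with TMM factors. Bop1 at 96 h became 0.094 over the control and 0.52 over 48 h with 10% to 20% mitochondrial UMIs, and Nop10 at 96 h over 48 h became 0.18 with at least 3%. The cause was not tested. Of 720 gene ratios under alternatives, 618 moved by less than their counting interval. Depth limits Nop56 most, with 102 UMIs in the adult control.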
